A study of Mus musculus with 6 samples.

Results

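Ccnd1, Myc and Cdkn1a are 3 growth-control genes among the 456 genes of a panel counted in 22154 single kidney cells of mice. They were chosen by name, as a cyclin, a transcription factor and a cyclin-dependent kinase inhibitor of the entry into the cell cycle. The panel also holds the cyclin genes Ccne1 and Ccne2 and the inhibitor gene Cdkn1b. Counts of the 3 chosen genes were summed per library and cell class. The study asked how segments of the nephron adapt to furosemide, a loop diuretic that blocks salt uptake by NKCC2 in the thick ascending limb. Furosemide mice received 70 mg/kg body weight for 1 week (3 libraries, numbered 2, 4 and 6), and vehicle mice received vehicle for 1 week (3 libraries, numbered 1, 3 and 5). All were wild-type C57BL/6 mice (WT in the sample titles) aged 16 weeks, and all ate a gel diet with 104 µmol sodium per kcal. The labels call the groups' members replicates and do not say whether each came from a separate animal, so p-values measure only the spread between these samples.

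Cyclin D1, the product of Ccnd1, binds the kinases CDK4 and CDK6 and lets cells pass through the G1 phase, and its gene responds to mitogens. Myc is an early-response transcription factor that drives ribosome production, metabolism and growth. The p21 protein, made from Cdkn1a, inhibits cyclin-dependent kinases and is induced by p53 and by other stress signals, also in injured kidney tubules. In the GENCODE annotation of GRCm38, Ccnd1 (ENSMUSG00000070348) lies on the minus strand at chr7:144929931-144939925. Myc (ENSMUSG00000022346) lies on the plus strand at chr15:61985391-61990374 and Cdkn1a (ENSMUSG00000023067) on the plus strand at chr17:29090976-29100727. The counts are per gene and do not tell exons or transcripts apart.

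The 6 libraries held 3051 to 4439 cells and 4819988 to 7635509 counts each, with medians of 1073 to 1540 counts per cell. The authors' 15 cell classes were used as deposited. Of 7 listed markers of the thick ascending limb (TAL), 6 were highest in the class named TAL, and Kcnj1 was highest in DCT, the distal convoluted tubule. Of the type A intercalated genes in the panel, Aqp6 was highest in the class named OMCD principal, Slc4a1 in AIC and Atp6v1g3 in BIC. Of the principal cell genes, Scnn1b, Scnn1g and Hsd11b2 were highest in CCD principal, and Aqp2 and Fxyd4 in mystery cells. In a second clustering by the authors, 241 of the 373 OMCD principal cells lay in a cluster named AIC. Class names are therefore used as labels, and OMCD principal is not read as principal cells. A cell number occurred in more than 1 library 196 times (392 cells). Levels are counts per 1000000 panel counts (CPM), so they are shares of the panel and not of all transcripts. Ccnd1 had 51424 counts and was seen in 59.1% of all cells, Myc had 6247 counts in 15.3% and Cdkn1a had 22619 counts in 25.8%.

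**Figure D1:**
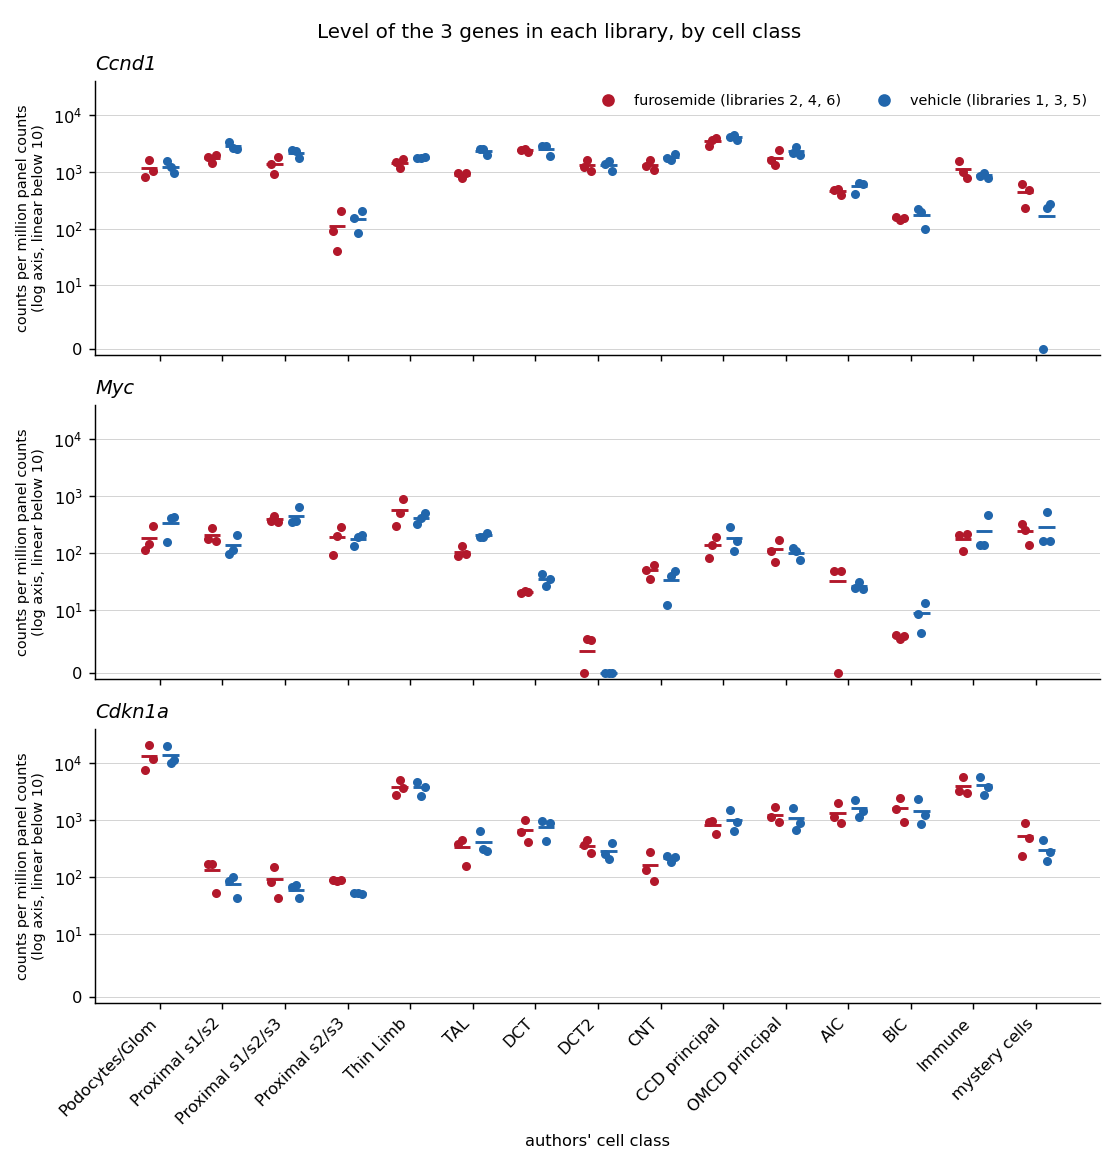
Each point is the level of a gene in 1 library, in CPM on a log axis that is linear below 10, by the authors' cell class. Furosemide libraries are red and left, vehicle libraries blue and right, and bars are means of 3 libraries. These are plain CPM, without TMM scaling. The groups lie apart for Ccnd1 and Myc in TAL, where 23.7% of the genes tested lie apart in TMM-scaled CPM. They also lie apart for Ccnd1 in CNT, Proximal s1/s2 and Thin Limb, and for Cdkn1a in Proximal s2/s3. The same holds for Myc in DCT and in BIC, which has 1 or 2 Myc counts per library.

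Ccnd1 and Myc fell in TAL cells of furosemide mice, and no other class had a member that passed the test. Ccnd1 was 2.45-fold lower (95% interval 1.78 to 3.37) and Myc 1.82-fold lower (95% interval 1.37 to 2.42). Cdkn1a did not pass in any class. Outside TAL, with edgeR as with DESeq2 and limma-voom, 0 members were called, while an unadjusted p under 0.05 was reached by Ccnd1 in 3 classes (CNT, Proximal s1/s2 and Proximal s1/s2/s3), by Cdkn1a in 1 (Proximal s2/s3) and by Myc in 0. These were 2 of 3 members called in TAL, both lower, where 4.73% of the 317 tested panel genes were called and 3.15% were called lower. The members were chosen with earlier results of these data known, so these shares are a description only. Elsewhere the share of all tested genes that was called was 5.08% in CNT, 4.73% in DCT, 2.29% in mystery cells, 1.88% in Thin Limb, 1.42% in DCT2, 0.418% in Podocytes/Glom, 0.408% in BIC and 0 in the other 7. Of 45 pairs of member and class, 39 could be tested. In mystery cells, a class the authors left unnamed, all 3 members had too few counts. The fitted change was below 0 in 26 pairs and above 0 in 13.

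Ccnd1 in TAL stood at 987, 757 and 1061 CPM in furosemide libraries 2, 4 and 6, against 2357, 2617 and 1885 CPM in vehicle libraries 1, 3 and 5. Every furosemide library lay below every vehicle library, as it did in one direction or the other for 23.7% of the genes tested in TAL. The means were 935 ± 159 CPM with furosemide and 2286 ± 371 CPM with vehicle (SD, n = 3 each), and the log2 change was -1.29 ± 0.19 (SE; edgeR quasi-likelihood test, Benjamini-Hochberg adjusted p = 0.0177). The sums behind these levels held 548, 991 and 698 counts with furosemide and 3936, 4150 and 2479 counts with vehicle. Leaving out furosemide library 2, vehicle library 3 or furosemide library 4 ended the call, with log2 changes of -1.30, -1.14 and -1.14 (edgeR adjusted p = 0.0748, 0.0712 and 0.0571).

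Myc in TAL stood at 90.1, 126 and 106 CPM in furosemide libraries 2, 4 and 6, against 179, 197 and 214 CPM in vehicle libraries 1, 3 and 5. The groups did not overlap, and the spread within each was small. The means were 108 ± 18.0 CPM with furosemide and 196 ± 17.3 CPM with vehicle (SD, n = 3 each), a log2 change of -0.86 ± 0.17 (SE; edgeR adjusted p = 0.0426). Only 50, 165 and 70 counts stood behind the furosemide levels, and 299, 312 and 281 behind the vehicle levels. Leaving out any 1 of the 6 libraries kept the direction (log2 change of -0.98 to -0.72) and ended the call (edgeR adjusted p of 0.0634 to 0.199). With RLE size factors in place of TMM the change was -0.85 (edgeR adjusted p = 0.0513), which did not pass.

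Cdkn1a in TAL had 402, 429 and 175 CPM in furosemide libraries 2, 4 and 6, against 599, 313 and 275 CPM in vehicle libraries 1, 3 and 5. The groups overlapped widely, with vehicle library 1 the highest and furosemide library 6 the lowest. The log2 change was -0.24 ± 0.43 (SE; edgeR adjusted p = 0.795), with a 95% interval from -1.26 to 0.79 that leaves room for a change in either direction. The direction was not stable: it was 0.17 without vehicle library 1 and 0.068 without furosemide library 6.

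**Figure D2:**
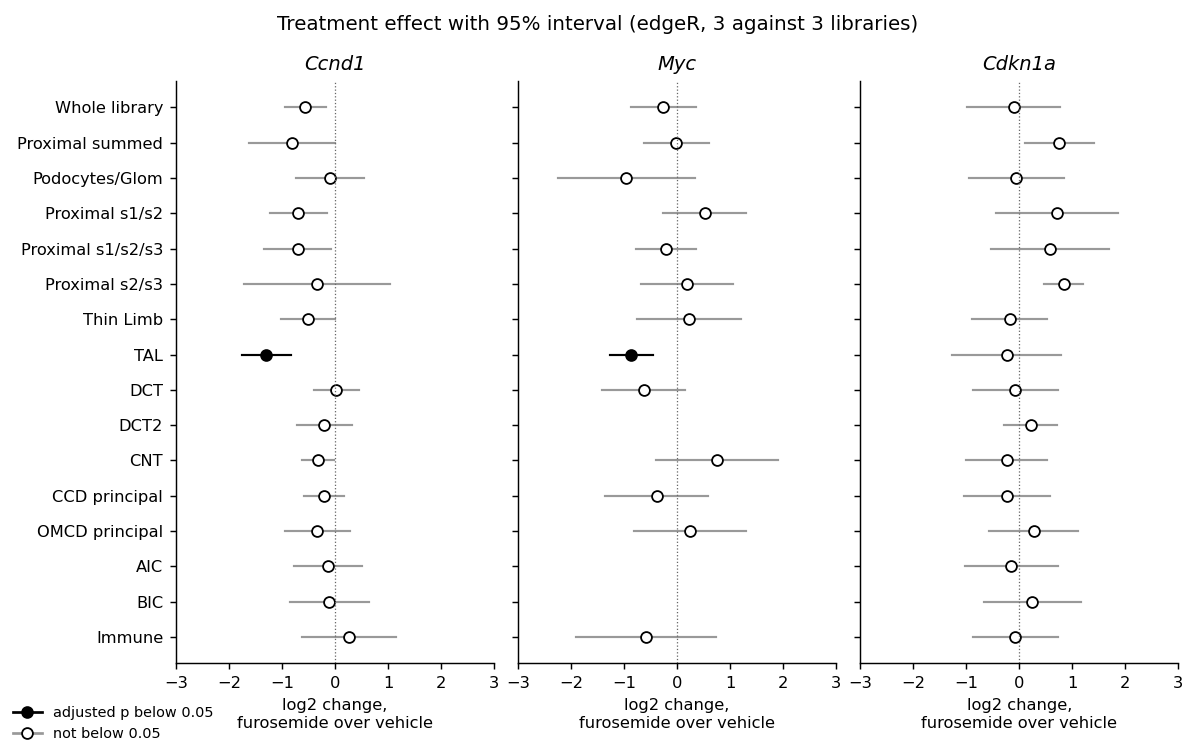
Points are log2 changes of furosemide over vehicle for each gene and class, with the 95% interval of the edgeR fit as a line (3 against 3 libraries). Filled points have an adjusted p below 0.05. The whole library and the summed proximal classes are plotted beside the classes. Only Ccnd1 and Myc in TAL are filled. Uncalled intervals lie above 0 for Cdkn1a in Proximal s2/s3 and in the summed proximal classes. They lie below 0 for Ccnd1 in CNT, Proximal s1/s2, Proximal s1/s2/s3, the summed proximal classes and the whole library.

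Among TAL cells, the lower Ccnd1 level was spread over the whole distribution of counts per cell. The median TAL cell had 1 Ccnd1 count in each furosemide library, against 3, 4 and 2 counts in vehicle libraries 1, 3 and 5. Cells with 5 or more Ccnd1 counts made up 5.34%, 5.60% and 6.28% of TAL cells with furosemide, against 35.3%, 42.5% and 22.6% with vehicle. Median panel counts per TAL cell were close, 1531 over furosemide cells and 1485 over vehicle cells.

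After each cell was thinned to 500 counts, 31.5%, 32.7% and 35.0% of TAL cells in furosemide libraries 2, 4 and 6 held a Ccnd1 count, against 62.7%, 64.8% and 58.4% in vehicle libraries 1, 3 and 5. The mean shares were 33.0% ± 1.80 with furosemide and 62.0% ± 3.26 with vehicle (SD, n = 3 each; two-sided exact permutation p = 0.1, below which this design cannot go, and adjusted p = 0.643 over members and classes). Without thinning the shares were 62.6% to 65.2% with furosemide and 83.1% to 90.5% with vehicle. In Proximal s2/s3, the class lowest in Ccnd1, 6.74% of thinned cells held a Ccnd1 count, averaged over both treatments. Its median depths were 1532 and 1404 counts in furosemide and vehicle cells. Whether such counts are background was not tested. Thinning left out 7 furosemide and 20 vehicle cells of TAL.

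Myc counts were found in 3.09%, 4.17% and 4.32% of thinned TAL cells with furosemide, against 6.93%, 7.05% and 7.96% with vehicle. The groups did not overlap, at 3.86% ± 0.671 and 7.31% ± 0.564 (SD, n = 3 each; exact permutation p = 0.1, adjusted p = 0.643). In BIC, the type B intercalated cells, the thinned Myc share was 0.52% on average, and in DCT2, the late distal convoluted tubule, it was 0. Cdkn1a counts were found in 16.3%, 16.7% and 7.05% of thinned TAL cells with furosemide and in 19.1%, 12.4% and 9.89% with vehicle, shares that overlapped.

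**Figure D3:**
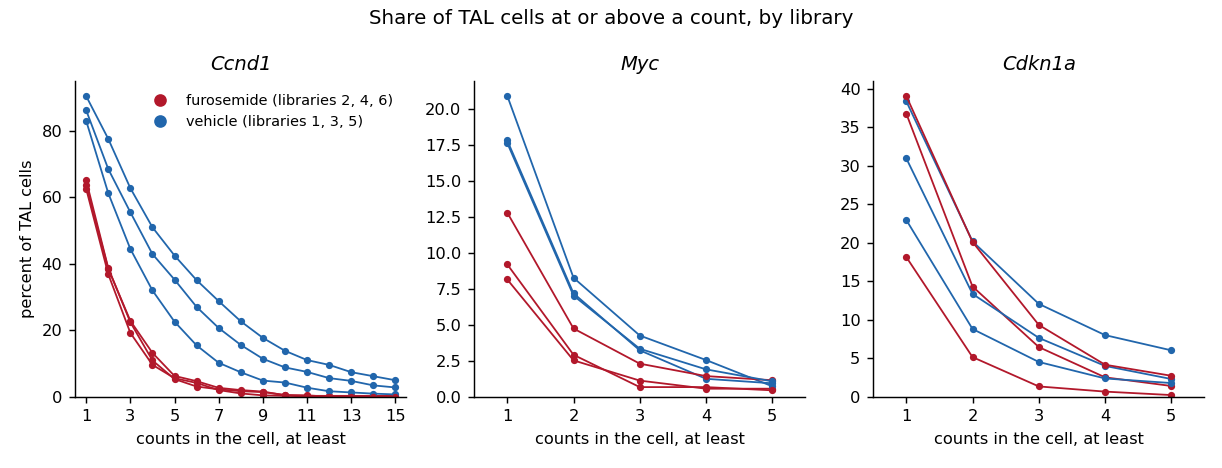
Each line is 1 library and gives the percent of its TAL cells with at least the count on the horizontal axis, unthinned. For Ccnd1 the 3 furosemide lines (red) run together below the 3 vehicle lines (blue), from 62.6% to 65.2% against 83.1% to 90.5% at 1 count. For Cdkn1a the lines of both groups cross.

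TAL cells differ in their claudins: Cldn10 forms sodium-selective paracellular pores and Cldn16 belongs to the route for calcium and magnesium. Cldn16 was itself called, with a log2 change of 1.06 ± 0.20 (edgeR adjusted p = 0.0426). A split of TAL cells by these genes, chosen after their values were seen, was used to view the members within each set of cells. A set rests on whether a count was seen, and so on depth and on the changed Cldn16 level. It is not an established kind of cell. Cells with Cldn10 and no Cldn16 counts made up 12.1% to 16.0% of TAL cells with furosemide and 29.6% to 37.0% with vehicle. In every library they held more Ccnd1 than cells with both claudins or with Cldn16 alone.

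In the cells with Cldn10 alone, Ccnd1 stood at 1365, 1347 and 1809 CPM in furosemide libraries 2, 4 and 6, against 3533, 3623 and 2628 CPM in vehicle libraries 1, 3 and 5 (relative to all panel counts, without TMM scaling). In cells with both claudins it stood at 942, 755 and 911 CPM with furosemide and 2202, 2410 and 1874 CPM with vehicle. In cells with Cldn16 alone it stood at 505, 438 and 558 CPM with furosemide and 1703, 1389 and 1291 CPM with vehicle. The groups lay apart in all 3 sets of cells, as did 22.7%, 20.1% and 22% of the panel genes tested there.

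The fitted log2 change of Ccnd1 was -0.75 in cells with Cldn10 alone, -1.31 in cells with both and -1.50 in cells with Cldn16 alone (edgeR adjusted p = 0.171, 0.0523 and 0.0117), and these sums hold fewer cells than the class. Myc changed by -0.50, -0.83 and -1.29 on the log2 scale in the same order (edgeR adjusted p = 0.437, 0.0913 and 0.180). Whether the change of the claudin mix itself adds to the class-wide values was not tested.

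**Figure D4:**
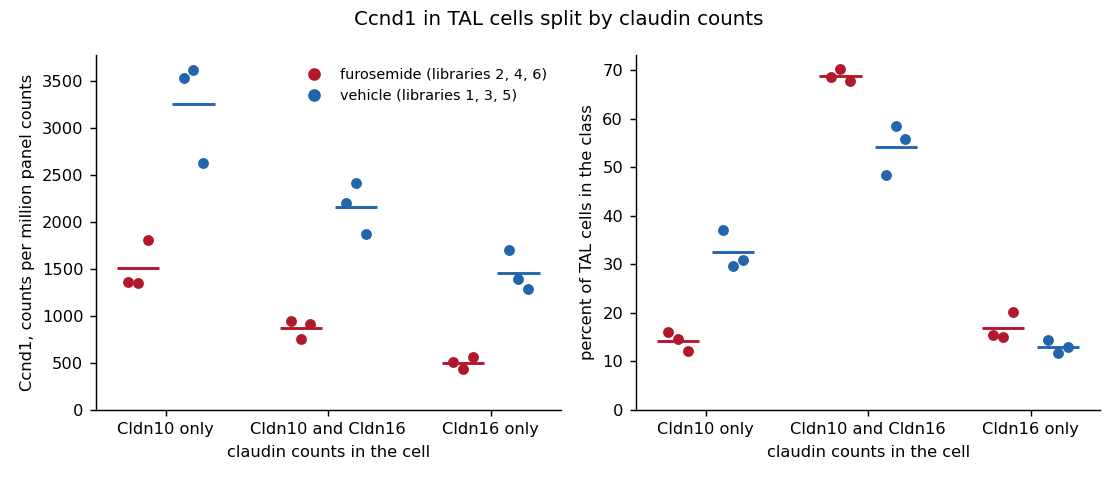
Left, Ccnd1 in CPM, and right, the percent of TAL cells, for TAL cells with Cldn10 counts only, with both and with Cldn16 counts only. Points are libraries, furosemide red and left, vehicle blue and right, and bars are means of 3 libraries. Ccnd1 is lower with furosemide in each set of cells, and the Cldn10-only share is lower as well.

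Of the listed markers of other cell types tested in the TAL sums, 1 was called, the connecting tubule gene Calb1, at 128, 129 and 109 CPM in furosemide libraries 2, 4 and 6, against 39.5, 42.2 and 34.2 CPM in vehicle libraries 1, 3 and 5 (log2 change 1.66 ± 0.19 SE, edgeR adjusted p = 0.00701). The summed level of each list overlapped between the groups, but a sum follows its most abundant genes and can hide a change such as that of Calb1. The distal convoluted tubule list also holds Egf, which was itself highest in TAL. The summed connecting tubule list was 1102 to 1533 CPM with furosemide and 1021 to 1126 CPM with vehicle. The summed proximal list was 210 to 299 CPM with furosemide and 207 to 246 CPM with vehicle. Endothelial and red cell markers are not in the panel. The part of these markers in the Ccnd1 and Myc results was not tested.

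Beyond TAL, Ccnd1 was highest in CCD principal, the principal cells of the cortical collecting duct, at 3469 ± 500 CPM with furosemide and 4098 ± 356 CPM with vehicle (plain CPM, SD, n = 3 each). Ordered by vehicle means, Proximal s1/s2, DCT, TAL, OMCD principal, Proximal s1/s2/s3, CNT (the connecting tubule) and Thin Limb came next, and each overlapped its neighbour in that order. AIC, the type A intercalated cells, and BIC held little, and Proximal s2/s3 least, at 112 ± 84.0 CPM with furosemide and 149 ± 62.7 CPM with vehicle. In all, 10 of 14 neighbouring pairs overlapped in their vehicle libraries. TAL ranked 11 of 15 classes in the furosemide libraries and 4 of 15 in the vehicle libraries, at 894 ± 90.2 and 2368 ± 331 CPM. That shift of 7 ranks was the largest of any class for Ccnd1.

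Ccnd1 was tested in 14 classes and its fitted change was below 0 in 12. In Proximal s1/s2 it had 1782, 1297 and 2234 CPM in furosemide libraries 2, 4 and 6, against 3402, 2633 and 2536 CPM in vehicle libraries 1, 3 and 5. The groups did not overlap (11% of the genes tested in that class did not), but the change of -0.69 ± 0.23 on the log2 scale did not pass (edgeR adjusted p = 0.550). Proximal s1/s2/s3 had a like fitted change, -0.70 ± 0.27, with overlapping groups (edgeR adjusted p = 0.640).

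The authors' finer classes divide each of these proximal classes into gr1 and gr2, and the larger gr2 carried most cells. In gr2 of Proximal s1/s2, Ccnd1 had 1742, 1438 and 1941 CPM in furosemide libraries 2, 4 and 6, against 3253, 2497 and 2499 CPM in vehicle libraries 1, 3 and 5 (plain CPM). In gr2 of Proximal s1/s2/s3 it had 1679, 1195 and 1972 CPM with furosemide against 3089, 2896 and 2208 CPM with vehicle. The furosemide libraries lay below the vehicle libraries in both, where the groups did not overlap for 8.21% and 12.7% of the genes that passed the count filter. In gr1 of Proximal s1/s2 the groups overlapped, at 2699, 1146 and 2556 CPM with furosemide and 4445, 3301 and 2458 CPM with vehicle, from 24 to 94 cells per library. In gr1 of Proximal s1/s2/s3 the level was lower in both groups, at 183 to 428 CPM with furosemide and 418 to 932 CPM with vehicle, and the ranges overlapped. No test was made in the finer classes.

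The groups also lay apart for Ccnd1 in CNT and Thin Limb, where 27.3% and 20.3% of the tested genes did so. In CNT it had 1367, 1495 and 1282 CPM with furosemide against 1666, 1676 and 1821 CPM with vehicle, and in Thin Limb 1393, 1047 and 1661 CPM with furosemide against 1892, 1931 and 1960 CPM with vehicle. Neither passed, at log2 changes of -0.32 ± 0.13 and -0.50 ± 0.22 (edgeR adjusted p = 0.212 and 0.330).

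DCT lies next to TAL along the nephron. DCT cells had 2641, 2359 and 2533 CPM in furosemide libraries 2, 4 and 6, against 2669, 2960 and 1746 CPM in vehicle libraries 1, 3 and 5. The furosemide libraries lay within the range of the vehicle libraries, and the change was 0.03 ± 0.19 on the log2 scale (edgeR adjusted p = 0.962). The effect on Ccnd1 in TAL minus that in DCT was -1.28 ± 0.17 (SE; edgeR interaction test with the library as a block, adjusted p = 0.00196), with a 95% interval from -1.67 to -0.90. Of 311 genes tested for this difference, 9.65% passed. Myc did not, at -0.13 ± 0.37 (edgeR adjusted p = 0.958), nor did Cdkn1a, at -0.10 ± 0.26 (edgeR adjusted p = 0.867). For Myc the unadjusted p of this edgeR test was 0.917, larger than the SE implies, so that SE understates the uncertainty.

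The other differences between segments did not pass, among comparisons in which 0 to 1.38% of all genes did (1.38% for TAL minus the summed proximal classes, 0.311% for TAL minus CNT, 0 for TAL minus CCD principal and 0.283% for DCT minus the summed proximal classes). For Ccnd1 they were -1.07 ± 0.28 in TAL minus CNT (edgeR adjusted p = 0.124), -1.01 ± 0.20 in TAL minus CCD principal (0.144) and -0.44 ± 0.25 in TAL minus the 3 proximal classes summed (0.506). For Myc the difference of TAL minus the summed proximal classes was -0.95 ± 0.20 (edgeR adjusted p = 0.0618), and for Cdkn1a it was -1.06 ± 0.25 (0.0831). For Myc in TAL minus CNT the difference was -1.74 ± 0.56 (edgeR adjusted p = 0.224). In DCT minus the summed proximal classes, the differences were 0.79 ± 0.32 for Ccnd1, -0.90 ± 0.36 for Myc and -1.01 ± 0.31 for Cdkn1a (edgeR adjusted p = 0.348, 0.348 and 0.216). The unadjusted 95% intervals of all these differences excluded 0, apart from Ccnd1 in TAL minus the summed proximal classes (-1.02 to 0.14). Cdkn1a in TAL minus CNT (0.01 ± 0.31) and Myc and Cdkn1a in TAL minus CCD principal (-0.42 ± 0.45 and 0.05 ± 0.23) also had intervals that held 0.

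In the sum over all cells of a library, Ccnd1 had 1142, 1063 and 1339 CPM with furosemide against 1804, 1959 and 1469 CPM with vehicle. The groups lay apart, as for 21.4% of the 426 genes tested, but the change of -0.56 ± 0.16 on the log2 scale did not pass (edgeR adjusted p = 0.141), where 4.46% of the genes did. In such a sum, fewer cells of a type and less RNA per cell cannot be told apart. TAL cells numbered 356, 696 and 446 in furosemide libraries 2, 4 and 6, against 961, 823 and 840 in vehicle libraries 1, 3 and 5. Myc changed by -0.26 ± 0.26 and Cdkn1a by -0.11 ± 0.37 (edgeR adjusted p = 0.674 and 0.921), with overlapping libraries.

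Myc was highest in Thin Limb and Proximal s1/s2/s3. Thin Limb had 559 ± 298 CPM with furosemide and 411 ± 87.5 CPM with vehicle, and Proximal s1/s2/s3 had 391 ± 51.8 and 450 ± 162 CPM (plain CPM, SD, n = 3 each). The distal classes held little, with 20.5 ± 0.9 CPM in DCT with furosemide and 33.9 ± 8.0 CPM with vehicle. In DCT2 Myc had 0 to 5.4 CPM with furosemide and 0 in each vehicle library. Of 14 neighbouring pairs in the vehicle order, 11 overlapped.

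Myc also had too few counts to be tested in DCT2, AIC and BIC. In DCT the furosemide libraries had 20.9, 20.1 and 22.9 CPM and the vehicle libraries 39.7, 26.9 and 31.2 CPM. These groups did not overlap (as for 19.6% of genes tested in DCT), but they rest on 10, 15 and 9 counts with furosemide and 21, 11 and 9 counts with vehicle, and the change of -0.63 ± 0.35 did not pass (edgeR adjusted p = 0.507). In the other classes tested for Myc, edgeR adjusted p was not below 0.507.

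Cdkn1a was highest in Podocytes/Glom, with 13563 ± 6985 CPM with furosemide and 13845 ± 5574 CPM with vehicle (plain CPM, SD, n = 3 each). Immune had 3978 ± 1468 CPM with furosemide and 4107 ± 1494 CPM with vehicle, and Thin Limb 3873 ± 1229 CPM with furosemide and 3756 ± 1005 CPM with vehicle. The proximal classes held least, with 87.2 ± 1.5 CPM in Proximal s2/s3 with furosemide and 51.6 ± 0.8 CPM with vehicle. Podocytes/Glom lay above Immune without overlap, and 11 of the 14 neighbouring pairs overlapped. The order changed little between treatments, with 10 of 15 classes at the same rank and no shift above 2 ranks. Thinned to 500 counts, 81.0% of Podocytes/Glom cells held a Cdkn1a count, against 2.61% to 2.73% in the proximal classes, averaged over both treatments. The median Podocytes/Glom cell held 5, 15 and 5.5 Cdkn1a counts in furosemide libraries 2, 4 and 6, against 12.5, 6 and 5 counts in vehicle libraries 1, 3 and 5.

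In Proximal s2/s3, Cdkn1a had 98.3, 83.5 and 87.8 CPM in furosemide libraries 2, 4 and 6, against 51.8, 49.9 and 48.9 CPM in vehicle libraries 1, 3 and 5. All furosemide libraries lay above all vehicle libraries, in a class where the groups did not overlap for 10.7% of the genes tested. The log2 change was 0.84 ± 0.16 with a 95% interval from 0.47 to 1.21, and it did not pass adjustment over 291 genes (edgeR adjusted p = 0.140). The counts behind it were 125, 200 and 121 with furosemide and 85, 57 and 52 with vehicle. With cells thinned to 500 counts the change was 0.52 (edgeR adjusted p = 0.869), and without the 5% of cells with the highest totals it was 0.51 (edgeR adjusted p = 0.817).

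Cdkn1a differed between libraries in a way that the treatment does not describe. Vehicle library 1 was the highest of its group in 12 of 15 classes and furosemide library 4 the highest of its group in 13, and in 10 classes both lay above all of the other 4. In the sum over all cells the mean of libraries 4 and 1 was 1.78 times that of the others. This ratio ranked 12 of 426 genes, and 12.9% of the genes had both of these libraries above the rest. The pair was picked after the values were seen. Its high rank for Cdkn1a follows in part from that choice and is a description only. How many panel genes show this order within each class was not counted. Ccnd1 showed that order in 1 class and Myc in 0. Without libraries 1 and 4 the Ccnd1 change in TAL was -1.17 and the Myc change -1.09 (edgeR adjusted p = 0.0810 for both, with 2 against 2 libraries).

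**Figure D5:**
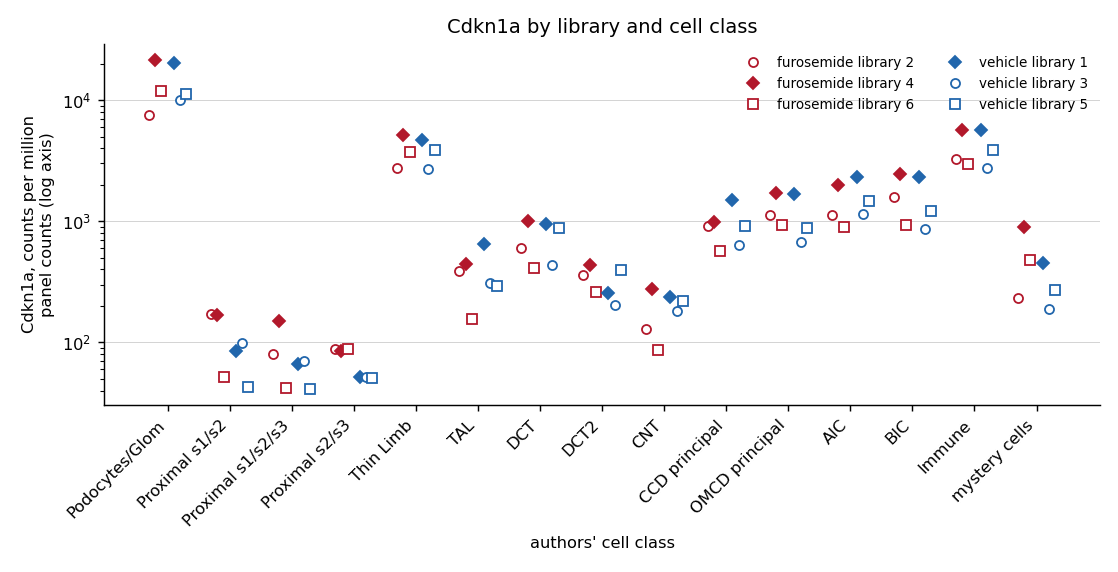
Cdkn1a in CPM on a log axis, for each library and cell class, furosemide red and left, vehicle blue and right. Filled diamonds are furosemide library 4 and vehicle library 1, a pair picked after the values were seen. Both lie above the other 4 libraries in 10 of 15 classes.

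In DCT, the 2 proliferation markers of the panel, Mki67 and Birc5 (survivin, a protein of mitosis), were called higher with furosemide. Mki67 had 83.7, 85.6 and 153 CPM in furosemide libraries 2, 4 and 6, against 3.78, 14.7 and 6.94 CPM in vehicle libraries 1, 3 and 5 (log2 change 3.64 ± 0.50 SE, edgeR adjusted p = 0.00517). Birc5 had 100.4, 163 and 293 CPM with furosemide against 7.57, 19.5 and 6.94 CPM with vehicle (3.98 ± 0.53, edgeR adjusted p = 0.00517). Ccnd1 changed by 0.03 ± 0.19 in the same DCT sums, and Cdkn1a and Myc were not called there.

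Within the furosemide libraries, 14, 35 and 13 DCT cells held a count of Birc5 or Mki67 and were compared with the other DCT cells of the same library. Ccnd1 had 2739, 2681 and 1621 CPM in these cells and 2626, 2423 and 2604 CPM in the others of libraries 2, 4 and 6, a log2 change of -0.13 ± 0.18 (edgeR adjusted p = 0.770). Cdkn1a had 1042, 1039 and 1158 CPM in these cells and 621, 977 and 404 CPM in the others. It was higher in 3 of 3 libraries, by 0.73 ± 0.25 on the log2 scale, and did not pass (edgeR adjusted p = 0.0857), where 11.2% of 242 genes did. The order was not the same under other choices of cells: with cells that held both markers, Cdkn1a in library 2 was 362 CPM in these cells and 637 CPM in the others, from 5 cells, and with all 6 libraries taken, vehicle library 1 had 661 CPM in its 6 such cells and 953 CPM in the others. The log2 change was 0.86 ± 0.33 with both markers required and 0.57 ± 0.25 over all 6 libraries (edgeR adjusted p = 0.0803 and 0.238). Myc had too few counts there to be tested.

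Of the lists of related genes, that of G1/S and cell-cycle regulators had 7 members tested in TAL, of which 0 were higher and 2 lower, Ccnd1 and Myc themselves. Its median log2 change was -0.16, beside 0.00 over all genes tested. Cdkn1b, the inhibitor p27, changed by -0.16 ± 0.19, Cdk2 by -0.03 ± 0.21 and Ccne1, cyclin E1, by -0.15 ± 0.41 (edgeR adjusted p = 0.695, 0.954 and 0.861). Birc5, a gene of mitosis, had 14.4, 12.2 and 21.3 CPM in TAL in furosemide libraries 2, 4 and 6, against 2.40, 1.26 and 4.56 CPM in vehicle libraries 1, 3 and 5. The groups lay apart, and its log2 change of 2.51 ± 0.56 did not pass with edgeR (adjusted p = 0.0553) but did with DESeq2. All 6 tested immediate early genes had a fitted change below 0, with a median of -0.55 beside 0.00 over all genes tested. Of these 6, 1 was called, the member Myc itself, and the shared direction was not tested. Egr1 had an unadjusted edgeR p under 0.05 and was not called. Over all 317 genes tested in TAL, 4.73% were called and 3.15% were called lower.

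Among 8 tested growth factor ligands and receptors 1 was lower with edgeR, Pdgfb, a platelet-derived growth factor chain, at 83.8 CPM with furosemide and 333 CPM with vehicle (log2 change -1.97 ± 0.37 SE, edgeR adjusted p = 0.0426). limma-voom called 0 of that list, and DESeq2 called Pdgfb and also Vegfa, an endothelial growth factor (-0.87 ± 0.22, edgeR adjusted p = 0.0811). Of 7 Wnt and beta-catenin genes, 2 were lower, again Ccnd1 and Myc, which are known targets of that pathway. Over all genes tested in TAL, 3.15% were called lower. DESeq2 also called Sfrp1, a secreted Wnt antagonist, which had a log2 change of 0.82 ± 0.20 (edgeR adjusted p = 0.0662). With edgeR, 0 of 6 p53 genes, 9 TGF-beta genes, 8 tubular injury genes and 5 heat shock and endoplasmic reticulum stress genes were called in TAL, and the lists share members. An unadjusted p under 0.05 was reached by 0, 3, 2 and 0 of them in the same order, and DESeq2 called 1, the TGF-beta pathway gene Thbs1, which had a log2 change of 0.65 ± 0.14 (edgeR adjusted p = 0.0553).

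Across the 15 classes the 3 members had different profiles of vehicle levels, with Pearson r between pairs of 0.11 (Ccnd1 and Myc), 0.05 (Ccnd1 and Cdkn1a) and 0.10 (Myc and Cdkn1a). These are descriptions over classes that share the same 3 libraries. The panel genes most like Cdkn1a were Mef2a (r = 0.909), Klf4 (0.898), Hspa1a (0.890), Tmsb10 and Pkd1, all highest in Podocytes/Glom. Those most like Myc were Pik3cb (0.796), Pdgfb (0.794), Tnfsf12, Cxcl1 and Bok. Ccnd1 had no close match, with Smad7 (0.626), Eif2ak3, Ptgds, Kcnj1 and Slc26a11 leading.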

How the data were processed

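The deposited table holds whole-number counts per cell and gene for the panel, made by the authors with the BD Rhapsody system, per the labels' protocols. Bowtie2 2.2.9 is named in the submitters' processing notes, and the genome build and counting rule are not given in the sources used here. Per the file headers and names, doublets were removed and cell numbers equalised (11077 cells per treatment). The deposited annotation gives other values: library, treatment and classes.

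Counts were summed per library and class (smallest sum 12 cells) and tested with edgeR 4.0.16 in R 4.3.3 (TMM, filterByExpr, robust glmQLFit and glmQLFTest), called at adjusted p below 0.05 over all genes tested in a class. Unless called plain, CPM are TMM-scaled. Alternatives were RLE, library size alone, no filter, DESeq2, limma-voom, the second clustering, thinning, other cell sets and leave-outs. The fits were tested on simulated counts. Genes named are the 3 members, called list genes and DCT proliferation markers, class markers, and the 5 genes most like each member. Uncalled list genes in TAL (Cdkn1b, Cdk2, Ccne1, Birc5, Egr1, Thbs1, Vegfa and Sfrp1) were named after their values were seen. Members and lists were chosen with earlier results of these data known. Titles' replicate numbers could not be joined to library numbers. Promoter motifs are not reported, since the promoter table held 1 of the 3 members.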

Additional observations from a re-analysis of the deposited data

Results flagged for a closer look

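The treatment effect on Ccnd1 differed between 2 neighbouring segments, by the test of the difference itself: the log2 change in TAL minus that in DCT was -1.28 ± 0.17 (SE; edgeR interaction test, adjusted p = 0.00196). With RLE size factors or with cells thinned to 500 counts the difference was -1.35 and -1.60, and it held its call without each library in turn (-1.40 to -1.15, edgeR adjusted p of 0.00194 to 0.0141).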

How the results depend on the processing

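No paired analysis was possible because the files number libraries 1 to 6 and nothing ties these to the replicate numbers in the titles. Ccnd1 in TAL kept its direction in every alternative run and its call in the planned ones that keep all 6 libraries, with log2 changes of -1.41 to -1.27. It lost the call in the sets added after the data were seen: -1.17 without libraries 1 and 4, -0.75 in cells with Cldn10 alone and -1.31 in cells with both claudins, but not in cells with Cldn16 alone. Left out one at a time, the libraries gave -1.41 to -1.14. Myc in TAL kept its direction and lost its call with RLE (-0.85), equal cell numbers (-0.79), a total without the 10 most abundant genes (-0.85), without libraries 1 and 4 (-1.09) and in cells with Cldn10 alone (-0.50), both claudins (-0.83) or Cldn16 alone (-1.29), and with each library left out (-0.98 to -0.72). The cause was not tested.

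The called genes in TAL were 15 in all, 32 with DESeq2 (16 in each direction), 26 with thinned cells (13 in each direction), 1 without libraries 1 and 4, 6 in cells with Cldn10 alone, 6 with Cldn16 alone, 0 with both claudins (edgeR; 36 at an unadjusted p under 0.05), and 3 to 21 with 1 library left out. Library size alone moved the median of all TAL genes by -0.11. The genes called for TAL minus DCT were 30, and 17 to 43 with 1 library left out.

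Values near 0 changed sign. Ccnd1 in DCT was -0.060 with library size alone (-0.18 to 0.20 with 1 library left out). Cdkn1a was 0.043 in DCT with thinned cells and 0.043 with equal cell numbers (-0.39 to 0.15), 0.022 in TAL cells with both claudins (-0.42 to 0.17) and -0.50 to 0.16 in the whole library. For TAL minus CCD principal it was -0.25 with thinned cells (-0.10 to 0.23), for TAL minus CNT -0.15 to 0.26 and for TAL minus DCT -0.38 to 0.065, the ranges again with 1 library left out. Myc in TAL minus DCT was -0.45 to 0.011, and in TAL minus the summed proximal classes -1.10 to -0.84, passing by a narrow margin without vehicle library 5. The share of TAL cells with Cdkn1a was 0.561 percentage points higher with furosemide unthinned, and -2.41 to 2.69 points with 1 library left out.

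Myc in DCT rests on 9 to 21 counts per library, and its 95% interval of -1.42 to 0.15 does not exclude the change seen in TAL.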

Other observations

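The members' counts occurred together in TAL cells. In cells with a Myc count, Cdkn1a was higher than in cells without one in 6 of 6 libraries, by 1.30 to 2.28 times in CPM. Myc was in turn higher in cells with a Cdkn1a count in 6 of 6 libraries (1.30 to 3.16 times). Ccnd1 and Myc went together in 6 of 6 libraries both ways, with Ccnd1 1.07 to 1.46 times higher in cells with a Myc count and Myc 1.10 to 3.72 times higher in cells with a Ccnd1 count. Cdkn1a was higher in cells with a Ccnd1 count in 6 of 6 (1.00 to 1.44 times), and Ccnd1 was higher in cells with a Cdkn1a count in 3 of 6 (0.847 to 1.18 times). In CCD principal, Myc was also higher in cells with a Cdkn1a count in 6 of 6 libraries (1.14 to 2.26 times). The other relations varied by class. Ccnd1 was higher in cells with a Myc count in 5 of 6 libraries in DCT and in Proximal s1/s2/s3. It was so in 4 of 6 in CCD principal, 1 of 6 in Podocytes/Glom and 0 of 6 in Thin Limb (0.322 to 0.951 times). Cdkn1a was higher in cells with a Ccnd1 count in 6 of 6 in Podocytes/Glom and in 0 of 6 in Thin Limb. In CCD principal, DCT and Proximal s1/s2/s3 it was so in 3 of 6. The TAL cells with a Myc count were also deeper, with median totals of 1535 to 2314 counts against 1262 to 1677 in those without. The same held for a Ccnd1 count (1365.5 to 1819 against 1060 to 1378) and a Cdkn1a count (1605 to 2021 against 1230.5 to 1641). Of the 3 claudin sets, cells with Cldn10 alone held most Ccnd1 and most Myc in every library. The part of depth or claudin set in these relations was not tested. How many other panel genes show such relations was not counted. The splits by members' counts were chosen after the values were seen and carry no test.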
